A study of Mus musculus with 38 samples.

Results

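Direct-pathway projection neurons of the striatum are represented here by 4 genes, Drd1, Tac1, Pdyn and Isl1, which were looked up by platform gene symbol among the 25697 probes of a mouse bead array. The 4 symbols had 5 probes, and each gene was read from its brightest one, leaving a weaker probe of Pdyn as a check. All 4 genes were detected in 37 of 37 arrays and were among the 9455 features tested, 8444 of which carried a gene name. Levels are log2 values after background correction and quantile normalization, so a step of 1 is a doubling, and a level is compared only within a probe.

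The striatum sends its output through 2 classes of projection neuron. The direct-pathway class carries the D1 dopamine receptor and the peptides substance P and dynorphin, and projects to the substantia nigra pars reticulata and the internal pallidum. The indirect-pathway class carries the D2 receptor and enkephalin, and acts through the external pallidum. Isl1 encodes a LIM-homeodomain transcription factor that promotes the direct-pathway fate during development, and it is also found in striatal cholinergic interneurons.

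Striatum was taken from MF1 mice at 152 days in 4 groups that differ in sex chromosomes and gonads. There were 9 XXY males, 9 XX females, 8 XX males and 11 XY males with a signal column. Each column is 1 animal and is called an array here. Sry, which sets testis development, is named in the codes of the male groups, without a word on how each of them carries it. A 12th XY male had no signal column. The question read from these labels is whether the number of X chromosomes or the type of gonad goes with expression in the striatum. Xist, the RNA that silences an X chromosome, was detected in 9 of 9 XXY males, 9 of 9 XX females and 8 of 8 XX males, against 0 of 11 XY males.

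The arrays also fall into sets that the labels do not explain. The sample codes end in the letter a for 14 arrays, in b for 14 and in both letters for 9. The upper range (90th percentile) of the raw signal was 632 to 937, 1266 to 2209 and 721 to 1526 in those sets. Bead numbers with a fraction were found in 9 of the 9 arrays of both letters and in 0 of a or b alone. Whether those 9 columns are means of more than 1 measurement was not tested, and each counted as 1 array. All 9 XX females carried letter b and all 8 XX males letter a, so that this pair of groups cannot be told apart from the letters. XXY males were spread unevenly, with 2 arrays of letter a, 6 of both letters and 1 of letter b. XY males had 4, 3 and 4 in the same order. Group differences below come from limma with terms for the batch in the labels and for the share of letter b, and p-values were adjusted over all 9455 features by Benjamini-Hochberg. The highest correlation of any array with another lay between 0.978 and 0.991, and no 2 arrays held the same values. The median correlation of an array with the others ran from 0.904 to 0.978. It was lowest in XXY male replicate 5 (0.904) and next lowest in XX female replicate 7 (0.926). After group, batch and letters were taken out, those 2 arrays had the highest residuals of Isl1, 0.371 and 0.355.

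The 250 bases before the start of each gene are printed because the members share a cell class and Tac1 and Pdyn are known targets of cAMP signalling. They come from RefSeq on build GRCm38.p6 (4 of 4 genes matched, with 6 windows; the ones shown are a window of each gene), and capitals mark TGACG or its reverse CGTCA, the core of the cAMP response element. Drd1 is chr13:54055659-54055908, minus strand. Tac1 is chr6:7554811-7555060, plus strand. Pdyn is chr2:129699939-129700188, minus strand. Isl1 is chr13:116309689-116309938, minus strand.
Drd1: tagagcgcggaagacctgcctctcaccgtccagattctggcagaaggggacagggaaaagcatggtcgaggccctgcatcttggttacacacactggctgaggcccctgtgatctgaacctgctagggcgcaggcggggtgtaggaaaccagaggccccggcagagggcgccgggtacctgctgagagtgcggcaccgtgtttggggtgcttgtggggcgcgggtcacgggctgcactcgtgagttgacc
Tac1: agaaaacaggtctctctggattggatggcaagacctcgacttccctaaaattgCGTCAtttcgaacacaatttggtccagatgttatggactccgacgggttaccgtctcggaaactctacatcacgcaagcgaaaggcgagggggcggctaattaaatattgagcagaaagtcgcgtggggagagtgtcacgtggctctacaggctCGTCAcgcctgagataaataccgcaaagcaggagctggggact
Pdyn: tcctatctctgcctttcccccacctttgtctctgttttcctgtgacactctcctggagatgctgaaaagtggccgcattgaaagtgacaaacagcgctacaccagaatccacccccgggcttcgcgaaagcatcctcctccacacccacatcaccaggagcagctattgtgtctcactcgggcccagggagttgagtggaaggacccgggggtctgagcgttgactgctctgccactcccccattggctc
Isl1: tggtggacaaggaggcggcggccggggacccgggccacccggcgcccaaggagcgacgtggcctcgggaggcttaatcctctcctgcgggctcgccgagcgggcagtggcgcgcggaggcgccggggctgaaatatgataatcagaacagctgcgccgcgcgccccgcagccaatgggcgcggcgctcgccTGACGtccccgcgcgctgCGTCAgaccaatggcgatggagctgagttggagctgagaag
Tac1 had 2 cores, the nearer 43 to 39 bases before the start and the farther 197 to 193 bases before it. Isl1 had 2 as well, 59 to 55 and 41 to 37 bases before its start. The windows of Drd1 and Pdyn, the second window of each included, held none. Among 32851 mouse promoter windows of this length, 17.8% held the core and 1.55% held the full TGACGTCA, which no member had. GGGCGG, the box read by Sp1, was at 107 to 102 bases before the start of Tac1 and at 133 to 128 bases before the start in the second window of Drd1, and 32.7% of windows held it on either strand.

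Drd1 encodes the D1 receptor, which raises cAMP in the neurons that carry it. Its level was 10.65, 10.98 and 11.41 (lowest, median and highest) in XXY males, 10.49, 11.24 and 12.50 in XX females, 10.04, 10.81 and 11.33 in XX males, and 10.23, 10.76 and 11.44 in XY males. The 4 groups overlapped, and the highest value of all arrays, 12.50, was XX female replicate 9. Group means were 11.02 ± 0.26 (SD, n = 9) in XXY males, 11.20 ± 0.61 (n = 9) in XX females, 10.83 ± 0.40 (n = 8) in XX males and 10.81 ± 0.35 (n = 11) in XY males.

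Tac1 encodes preprotachykinin, the precursor of substance P. It stood at 12.35, 12.92 and 13.40 in XXY males, at 12.31, 13.08 and 13.28 in XX females, at 12.47, 12.93 and 13.12 in XX males, and at 12.37, 12.80 and 13.34 in XY males. All groups covered nearly the same range. Means were 12.95 ± 0.34, 12.98 ± 0.31, 12.87 ± 0.23 and 12.81 ± 0.34 in XXY males, XX females, XX males and XY males.

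Pdyn encodes prodynorphin, the precursor of dynorphin, which acts on the kappa opioid receptor. Its brighter probe was at 11.82, 12.27 and 12.85 in XXY males, at 11.71, 12.34 and 13.19 in XX females, at 12.06, 12.37 and 12.72 in XX males, and at 11.84, 12.18 and 13.02 in XY males. The ranges overlapped, and that of XX males was the narrowest. The means were 12.34 ± 0.38, 12.44 ± 0.51, 12.38 ± 0.22 and 12.31 ± 0.39 in XXY males, XX females, XX males and XY males. The other probe of Pdyn was dimmer, at 8.15 to 9.66 in XXY males, 8.63 to 10.03 in XX females, 8.15 to 8.87 in XX males and 8.03 to 9.60 in XY males. The residuals of the 2 probes, after group, batch and letters, correlated at Pearson r 0.858 and Spearman rho 0.869 over 37 arrays (permutation p = 1e-05, the smallest 100000 permutations can give).

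Isl1 gave 9.90, 10.57 and 10.80 in XXY males, 10.06, 10.25 and 10.59 in XX females, 10.43, 10.75 and 10.88 in XX males, and 9.90, 10.38 and 10.94 in XY males. XX males were the highest group by median and XX females the lowest, and the 2 ranges overlapped between 10.43 and 10.59. Means were 10.45 ± 0.29, 10.26 ± 0.17, 10.69 ± 0.18 and 10.43 ± 0.32 in XXY males, XX females, XX males and XY males. XX males and XX females are also the groups with 1 letter only. In striatal tissue as a whole, fewer cells of a type and less RNA per cell cannot be told apart for any of these genes.

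**Figure D1:**
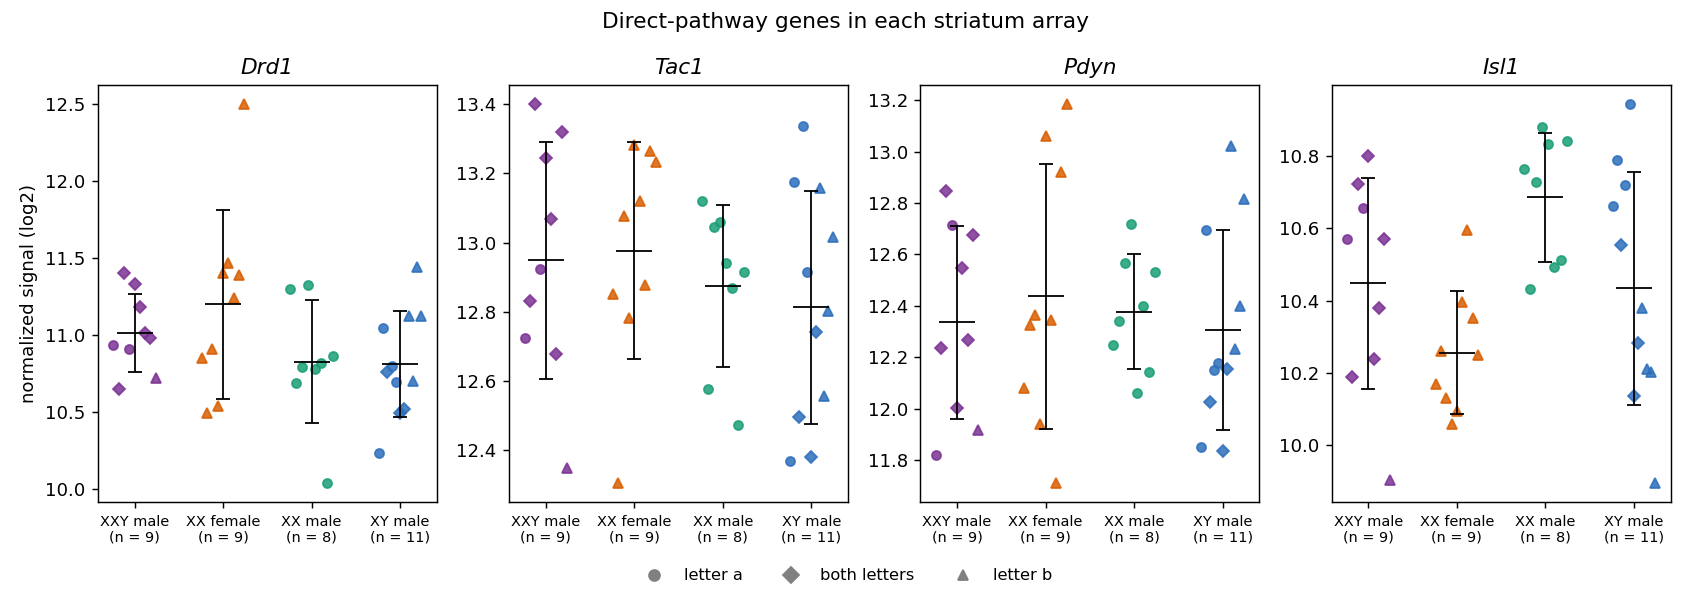
Levels of the 4 members (normalized signal, log2) in each array, with XXY males, XX females, XX males and XY males from left to right; each point is an animal, coloured by group and shaped by the letter of its sample code, and the bars give the group mean and SD. The groups overlap for every member, and XX female replicate 9 stands at 12.50 for Drd1.

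None of the 4 members passed the test in any of the 6 group comparisons. XXY male minus XY male called 0 of 4 (limma, background 0.0635% of features), as did XX female minus XY male (0.0529%), XX male minus XY male (0.0529%), XXY male minus XX female (0.0423%), XXY male minus XX male (0.0212%) and XX male minus XX female (0.0106%). In 24 tests of a member, 0 had an unadjusted p under 0.05, and the smallest unadjusted p was 0.208. The test of any difference between the 4 groups called 0 of 4 as well, against 0.106% of features, with 0 of 4 at an unadjusted p under 0.05.

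The intervals set how large a difference these arrays could have missed. Drd1 was 0.22 higher in XXY males than in XY males (SE 0.19, 95% interval -0.16 to 0.60, limma adjusted p = 1.00) and 0.31 higher in XX females than in XY males (SE 0.24, interval -0.18 to 0.81, adjusted p = 0.890), and both intervals included 0. The upper end of the interval for XX females, the highest over the 24 tests, is a ratio of 1.75. The lowest end over the 24 tests was -0.91, a ratio of 0.530, for Drd1 in XX males minus XX females. Tac1 differed by 0.13 (SE 0.14), 0.21 (SE 0.19) and 0.01 (SE 0.18) in XXY males, XX females and XX males minus XY males. Pdyn differed by 0.05 (SE 0.18), 0.05 (SE 0.23) and 0.17 (SE 0.22) in the same order. Isl1 differed by -0.02 (SE 0.09), 0.11 (SE 0.12) and -0.04 (SE 0.12) in the same order, the smallest errors of the set. All 24 intervals held 0.

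The other comparisons leave out XY males. XX males minus XX females gave -0.20 for Drd1 (SE 0.35), -0.20 for Tac1 (SE 0.27), 0.12 for Pdyn (SE 0.33) and -0.15 for Isl1 (SE 0.18). XXY males minus XX females gave -0.09 (SE 0.25), -0.08 (SE 0.20), -0.0022 (SE 0.24) and -0.13 (SE 0.13) for Drd1, Tac1, Pdyn and Isl1. XXY males minus XX males gave 0.11 (SE 0.24), 0.12 (SE 0.18), -0.12 (SE 0.22) and 0.02 (SE 0.12). The median of the members was 0.09 in XXY males minus XY males, where the median of all features was -0.0011, and 0.16 in XX females minus XY males, against -0.0092. Without XX female replicate 9, Drd1 was 0.07 in XX females minus XY males, 0.09 in XX males minus XX females and 0.15 in XXY males minus XX females, the last 2 of opposite sign to the values above. Pdyn in XX females minus XY males was then -0.09, also of opposite sign.

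**Figure D2:**
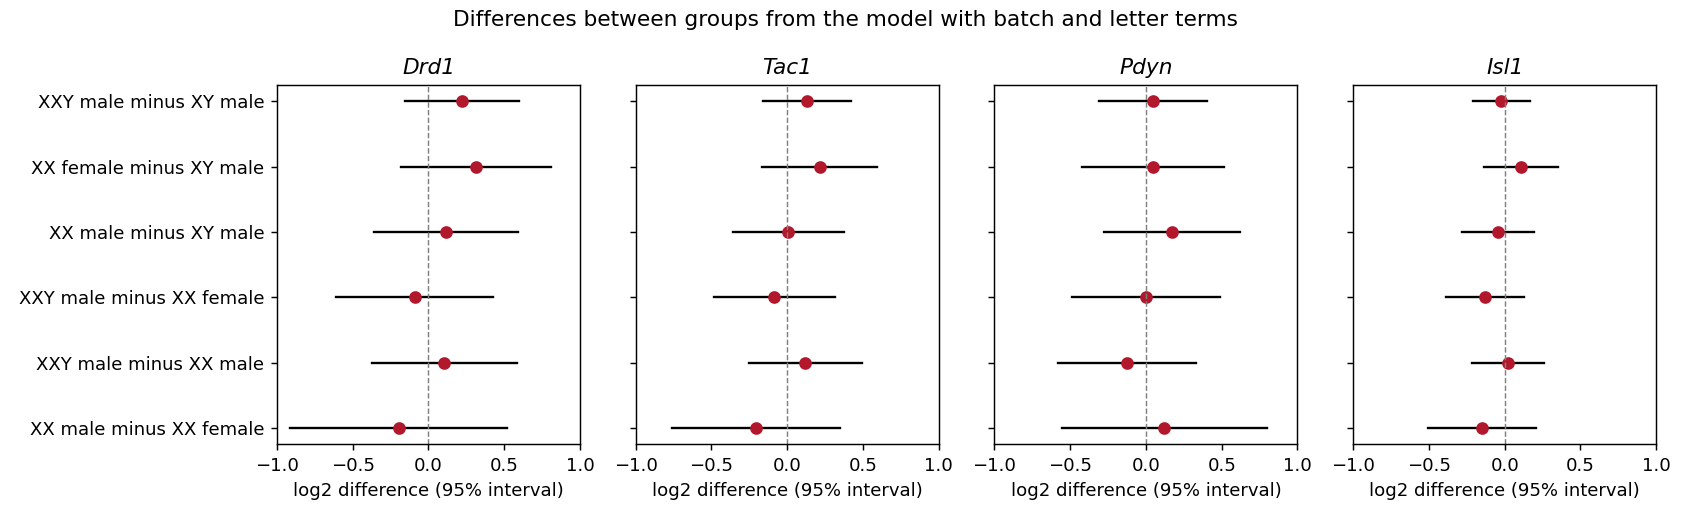
Group differences of the 4 members (log2), with points at the limma estimate and bars for the 95% interval. Every interval includes 0, and those of XX males minus XX females are the widest for each gene.

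Isl1 was lower on arrays of letter b. Its level was 10.70 ± 0.15 on the 14 arrays of letter a, 10.43 ± 0.24 on the 9 of both letters, and 10.21 ± 0.19 on the 14 of letter b alone. Within XY males alone, Isl1 was 10.78 ± 0.12 on 4 arrays of letter a and 10.17 ± 0.20 on 4 of letter b. The ranges of those 4 and 4 arrays, 10.66 to 10.94 and 9.90 to 10.38, did not overlap, but in XY males letter a lay in labelled batch 1 and letter b in batch 2. In the fit over all arrays the letter b term of Isl1 was -0.58 (SE 0.15, limma adjusted p = 0.00934), so 1 of 4 members was called, against 13.2% of features. It was called in 37 of 37 fits that left out 1 array, with values from -0.63 to -0.52. Within batch 1 the term was -0.23 (limma adjusted p = 0.936) and within batch 2 -0.40 (adjusted p = 0.746), neither called, and on the authors' deposited log2 table without XX males it was -0.22 (adjusted p = 0.683). Without the letter term, XX males minus XX females gave 0.41 for Isl1 (limma adjusted p = 0.00864), the opposite sign of the value above, in a fit that called 2544 features. The letter b term was 0.17 for Drd1, -0.10 for Tac1 and 0.18 for the brighter probe of Pdyn, none of them called. That probe averaged 12.32 ± 0.30, 12.29 ± 0.34 and 12.45 ± 0.47 on arrays of letter a, both letters and letter b. The other probe of Pdyn averaged 8.53 ± 0.34, 8.88 ± 0.54 and 9.24 ± 0.51 on the same arrays, so the probes differed in how far they moved with the letters. The batch term called 0 of 4 members and 0% of features, with 0 of 4 at an unadjusted p under 0.05.

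The members also differed in how much of their spread the design took up. Group, batch and letters together accounted for 60.4% of the variance of Isl1, 17.8% of that of Drd1, 5.85% of that of Tac1 and 5.30% of that of Pdyn. The residual SD was 0.19 for Isl1, 0.32 for Tac1, 0.40 for Pdyn and 0.42 for Drd1, beside a median of 0.32 over all features. Drd1 lay at the 73.2 percentile of residual SD and Isl1 at the 12.8 percentile.

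Over animals, the receptor and both peptides moved together. After group, batch and letters were taken out, Drd1 and Tac1 correlated at Pearson r 0.703 and Spearman rho 0.749 over 37 arrays (permutation p = 1e-05, the smallest 100000 permutations can give, adjusted 6e-05 over 6 pairs). Tac1 and Pdyn correlated at r 0.658 and rho 0.688 (adjusted permutation p = 9e-05). Drd1 and Pdyn correlated at r 0.591 and rho 0.593 (adjusted permutation p = 0.00014). Without the 2 arrays most extreme for the first-named gene of each pair, r was 0.737, 0.671 and 0.521. Without the 2 most extreme for the second-named gene, it was 0.652, 0.680 and 0.562. Within letter a, r was 0.748 for Drd1 and Tac1, 0.518 for Tac1 and Pdyn (rho 0.420) and 0.510 for Drd1 and Pdyn (rho 0.350). Both pairs with Pdyn missed the threshold there (adjusted permutation p = 0.0788 each). Within letter b the same pairs had r 0.714, 0.719 and 0.656 (14 arrays for each letter).

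The correlations of Isl1 with the other members were not compared with theirs by a test. Its r was 0.439 with Drd1 (rho 0.471, adjusted permutation p = 0.00744) and 0.458 with Tac1 (rho 0.449, adjusted permutation p = 0.00692). With Pdyn it was 0.143 (rho 0.185, permutation p = 0.395), which did not pass. Without the 2 arrays most extreme for Drd1, Tac1 or Pdyn, r was 0.504, 0.462 and 0.304 with that member. Without the 2 most extreme for Isl1, it was 0.449, 0.484 and 0.389. Within letter a, Isl1 had r 0.502 with Drd1 and 0.576 with Tac1, and within letter b 0.270 and 0.206, none of these past the test. When arrays were centred on the 75th percentile instead of quantile normalized, r was 0.706 for Isl1 with Tac1, 0.587 with Drd1 and 0.336 with Pdyn (adjusted permutation p = 6e-05, 0.000204 and 0.0418), beside 0.612 for Tac1 with Pdyn and 0.629 for Drd1 with Pdyn. All 4 members lay above their fitted values in 7 arrays, and 0 of 4 did in 11.

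**Figure D3:**
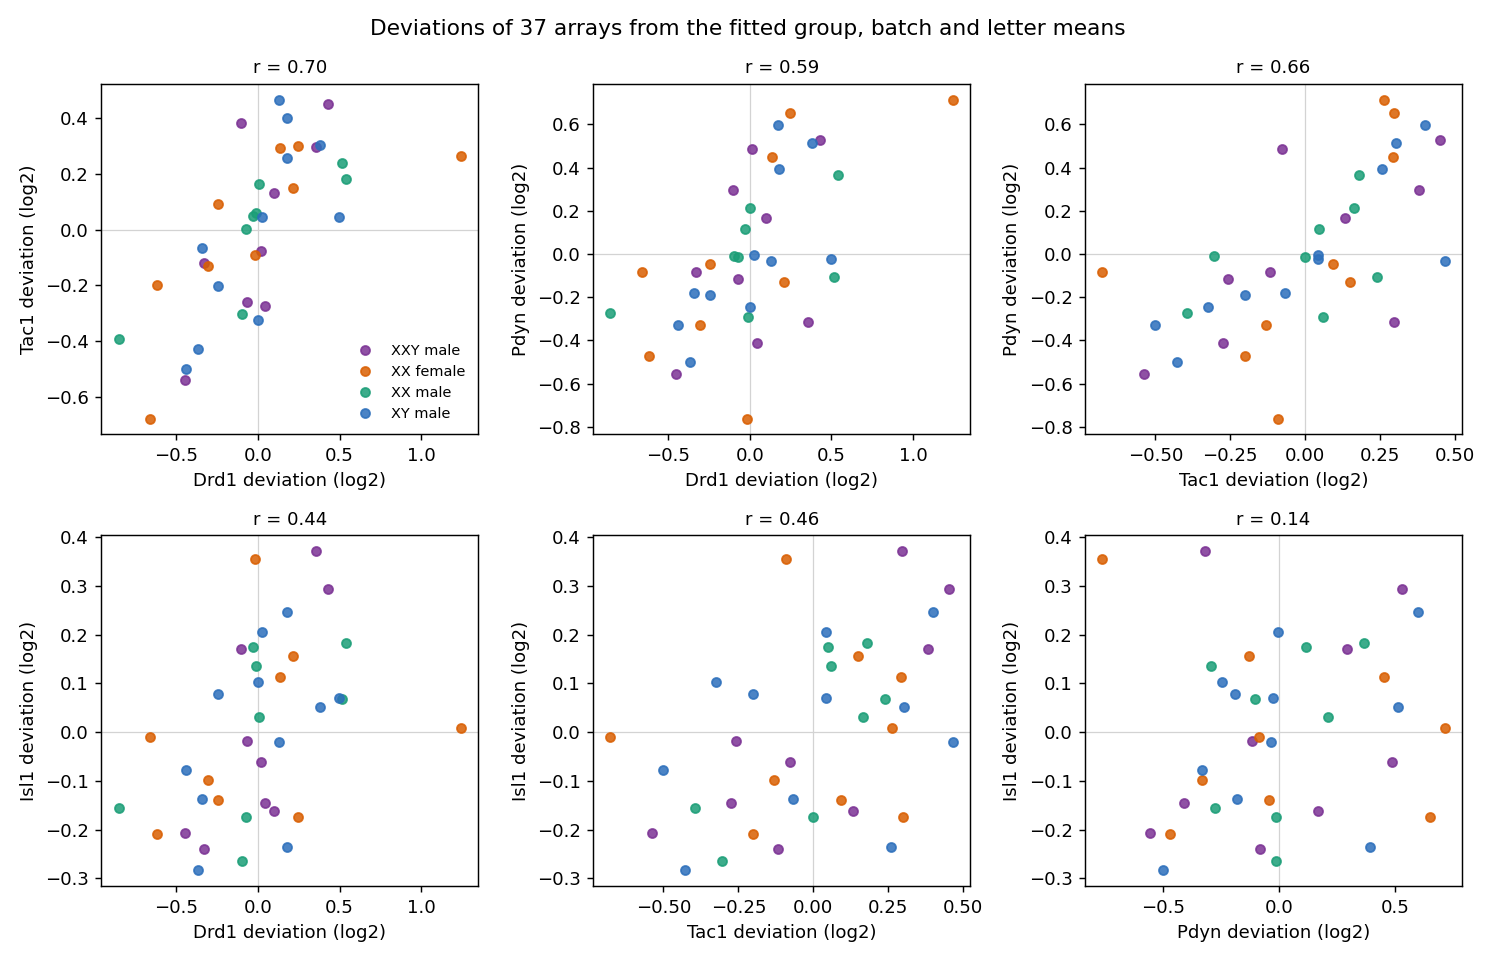
Deviations of the 37 arrays from the fitted group, batch and letter means (log2), for the 6 pairs of members; each point is an array, coloured by group. Drd1, Tac1 and Pdyn rise together, with r 0.703 for Drd1 and Tac1, while Pdyn and Isl1 have r 0.143.

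Much of the residual variation over all features ran along a single axis, the first principal component, with 45.3% of the variance. Pdyn correlated with it at an absolute r of 0.652 and Isl1 at 0.385, while Drd1 and Tac1 were at 0.123 and 0.0127. Pdyn had r above 0.5 with 19.0% of the other features, against 5.50%, 2.99% and 3.05% for Drd1, Tac1 and Isl1. In the ranking by likeness to Drd1, Tac1 stood at 60 and Pdyn at 240 of 9454 features, and Isl1 at 784. In the ranking by likeness to Tac1, Drd1 stood at 28 and Pdyn at 50. In that of Pdyn, Tac1 was at 556 and Drd1 at 1021.

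By the residuals over 37 arrays, the named features most like Drd1 were Homer1, a scaffold of glutamate synapses (r 0.911), Tle4, a transcriptional corepressor (0.844), Rarb, a retinoic acid receptor of striatal neurons (0.844), Nrde2 (0.841) and Kcnab1, a potassium channel subunit (0.833). The least like were Shd and Vamp1, at -0.883 and -0.839. Those most like Tac1 were Serpina9, Lrrtm3, a synaptic adhesion protein, Ido1, an enzyme of tryptophan breakdown, Adra2c, an adrenergic receptor, and Rarb, from 0.780 to 0.814. Ctnnbip1 and Chst8 were the least like it, at -0.878 and -0.854. Rarb was on the lists of both Drd1 and Tac1.

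Those most like Pdyn were Sdc2, a cell surface proteoglycan, Klf5 and Ets2, transcription factors, Gpr6, a receptor of indirect-pathway neurons, and Igfbp4, a binding protein of insulin-like growth factors, from 0.881 to 0.916. Necab3 and Mgst3 were the least like it, at -0.876 and -0.867. For Isl1 the values were lower. Atp6v1c2, Chia1, Mettl4, Ass1 and Gtf2e2 had r from 0.696 to 0.724, and Kif5a and Otx1 had -0.733 and -0.711.

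The other genes of the direct pathway were read from a list of 6, of which 4 were tested. Slc35d3, a transporter that helps the D1 receptor reach the cell surface in mice, averaged 8.16 ± 0.63 in XXY males, 7.32 ± 0.60 in XX females, 8.83 ± 0.41 in XX males and 7.86 ± 0.71 in XY males. Like Isl1 it was lowest in XX females and highest in XX males, and its letter b term was -1.38 (limma adjusted p = 0.00586). Sfxn1, a mitochondrial serine carrier, and Zfp521, a transcription factor, averaged 12.31 ± 0.22 and 8.57 ± 0.34 in XXY males, against 12.33 ± 0.34 and 8.60 ± 0.37 in XY males. Ebf1, a transcription factor needed for this class, was near the detection limit, detected in 1 of 9 XXY males, 7 of 9 XX females, 1 of 8 XX males and 4 of 11 XY males. No list gene of this or any of the 18 lists passed the limma test in any group comparison. There were 582 gene tests, with Calb2 and Zic1 counted once per list, and 27 had an unadjusted p under 0.05. Of all features, 1.3% to 7.62% had one, depending on the comparison.

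The cascade below the D1 receptor was represented by 9 of 17 genes. Ppp1r1b (DARPP-32, the phosphatase inhibitor of dopamine signalling) averaged 14.13 ± 0.53 in XXY males, 13.92 ± 0.59 in XX females, 14.38 ± 0.31 in XX males and 14.07 ± 0.35 in XY males. Gnb1 and Gng7, subunits of the G protein, and Pde10a, which breaks down cyclic nucleotides, differed by 0.03, 0.05 and 0.22 in XXY males minus XY males, with SEs of 0.20, 0.26 and 0.24. All 9 were positive in that comparison with a median of 0.05, where 49.5% of all features were positive. In XX females minus XY males 2 of 9 were positive with a median of -0.08 (48.4% of all features), and in XX males minus XY males 8 of 9 with a median of 0.30 (50.8% of all features). Prkaca, the catalytic subunit of protein kinase A, was the cascade gene that passed on the letter b term, at 0.91 (limma adjusted p = 0.0177).

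Receptors and processing enzymes of the peptides had 8 of 12 genes tested. Tacr1, the receptor of substance P, averaged 6.89 ± 0.27 in XXY males, 6.81 ± 0.31 in XX females, 6.88 ± 0.22 in XX males and 6.86 ± 0.40 in XY males. Oprk1, the receptor of dynorphin, averaged 5.53 ± 0.41 in XXY males, 5.41 ± 0.81 in XX females, 5.50 ± 0.37 in XX males and 5.36 ± 0.37 in XY males, and was detected in 3 of 9, 2 of 9, 2 of 8 and 4 of 11 of them. Tacr3, another tachykinin receptor, averaged 6.34 ± 0.53 in XXY males and 6.17 ± 0.46 in XY males.

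From the indirect pathway, 3 of 6 genes were tested. Drd2, the D2 receptor, averaged 10.06 ± 0.57 in XXY males, 10.38 ± 0.78 in XX females, 9.76 ± 0.39 in XX males and 10.01 ± 0.71 in XY males. Gpr6 and Sp9, a transcription factor of this class, differed by 0.21 (SE 0.23) and 0.25 (SE 0.25) in XXY males minus XY males. Of 7 cholinergic interneuron genes tested, which matter here since these cells also hold Isl1, Chat averaged 8.24 ± 0.39 in XXY males, 8.18 ± 0.68 in XX females, 8.48 ± 0.32 in XX males and 8.01 ± 0.58 in XY males, and Lhx8 7.50 ± 0.48, 7.39 ± 0.26, 7.01 ± 0.24 and 7.29 ± 0.41.

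Set against the lists, the residuals of Drd1, Tac1 and Pdyn moved with those of other projection neuron genes. The mean of 11 projection neuron genes correlated with Drd1 at r 0.712 (rho 0.712, adjusted permutation p = 7.2e-05 over 72 relations). Its r was 0.554 with Tac1 (rho 0.586, adjusted permutation p = 0.00132), 0.835 with Pdyn (rho 0.802, adjusted permutation p = 7.2e-05) and 0.0221 with Isl1 (rho 0.0896, adjusted permutation p = 0.977). The 3 indirect-pathway genes gave r 0.499, 0.490 and 0.867 with Drd1, Tac1 and Pdyn, and -0.0362 with Isl1. The 4 other direct-pathway genes gave 0.581, 0.623, 0.859 and 0.0556 with the members in the same order. Without the 2 arrays most extreme for Isl1, its r was 0.295, 0.226 and 0.2395 with the projection neuron, indirect-pathway and other direct-pathway lists. Within letter a its r with the projection neuron list was 0.355, and within letter b it was -0.143. The cholinergic list gave -0.015, 0.239, 0.5875 and -0.300 with Drd1, Tac1, Pdyn and Isl1. Only its value with Pdyn passed (rho 0.609, adjusted permutation p = 0.000554), and for Isl1 rho was -0.224 (adjusted permutation p = 0.130). Pdyn also moved with the endothelium and astrocyte lists, at r 0.693 and 0.417 (adjusted permutation p = 7.2e-05 and 0.0252).

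Genes of the thalamus and septum ran the other way. The mean of 6 thalamus and septum genes correlated with Drd1, Tac1, Pdyn and Isl1 at r -0.689, -0.763, -0.504 and -0.495 (rho -0.769, -0.764, -0.536 and -0.513), with adjusted permutation p of 7.2e-05, 7.2e-05, 0.00491 and 0.00519. The cortex list (3 genes) had r 0.0119 with Drd1, -0.373 with Tac1, -0.0490 with Pdyn and -0.567 with Isl1. Only the value of Isl1 passed (adjusted permutation p = 0.00072). The genes of this list did not all go the same way. With Drd1, r was -0.175 for Slc17a7 and -0.106 for Tbr1, but 0.308 for Nrgn. With Tac1 and Pdyn, too, Nrgn was positive and the other genes negative, while all 3 were negative with Isl1. With the pallidum and extended amygdala list (3 genes) r was -0.303, -0.0608, -0.241 and -0.148 for the members in the same order, and none passed. For the thalamus and septum list, r without the 2 arrays most extreme for the member was -0.767, -0.721, -0.506 and -0.520. Within letter a it was -0.621, -0.627, -0.334 and -0.350, and within letter b -0.716, -0.755, -0.492 and -0.402. The mean level of this list ran from 8.12 to 10.32 in XXY males, 8.17 to 10.72 in XX females, 7.95 to 9.84 in XX males and 8.10 to 10.81 in XY males.

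The mean of 7 oligodendrocyte genes correlated with Drd1 at r -0.719 (rho -0.678) and with Tac1 at -0.576 (rho -0.546), with adjusted permutation p of 7.2e-05 and 0.000720. With Pdyn and Isl1 it had r -0.287 and -0.388 (adjusted permutation p = 0.146 and 0.0421). With the thalamus and septum mean also taken out of the members, r was 0.378 for Drd1 and Tac1, 0.390 for Drd1 and Pdyn and 0.490 for Tac1 and Pdyn (adjusted permutation p = 0.0407, 0.0407 and 0.0135). By rank, rho was 0.303, 0.379 and 0.497 (unadjusted permutation p = 0.068, 0.0214 and 0.00196). For Isl1 with Drd1 and with Tac1, r was then 0.155 and 0.143 (adjusted permutation p = 0.402 each). With the projection neuron mean taken out instead, r was 0.528 for Drd1 and Tac1, -0.00810 for Drd1 and Pdyn and 0.426 for Tac1 and Pdyn. For Isl1 it was then 0.602 with Drd1, the highest of the 6 pairs, 0.535 with Tac1 and 0.227 with Pdyn (adjusted permutation p = 0.0003, 0.00184 and 0.210). With the first component taken out, all 6 pairs lay between 0.501 and 0.857. These adjustments were chosen after seeing the data.

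**Figure D4:**
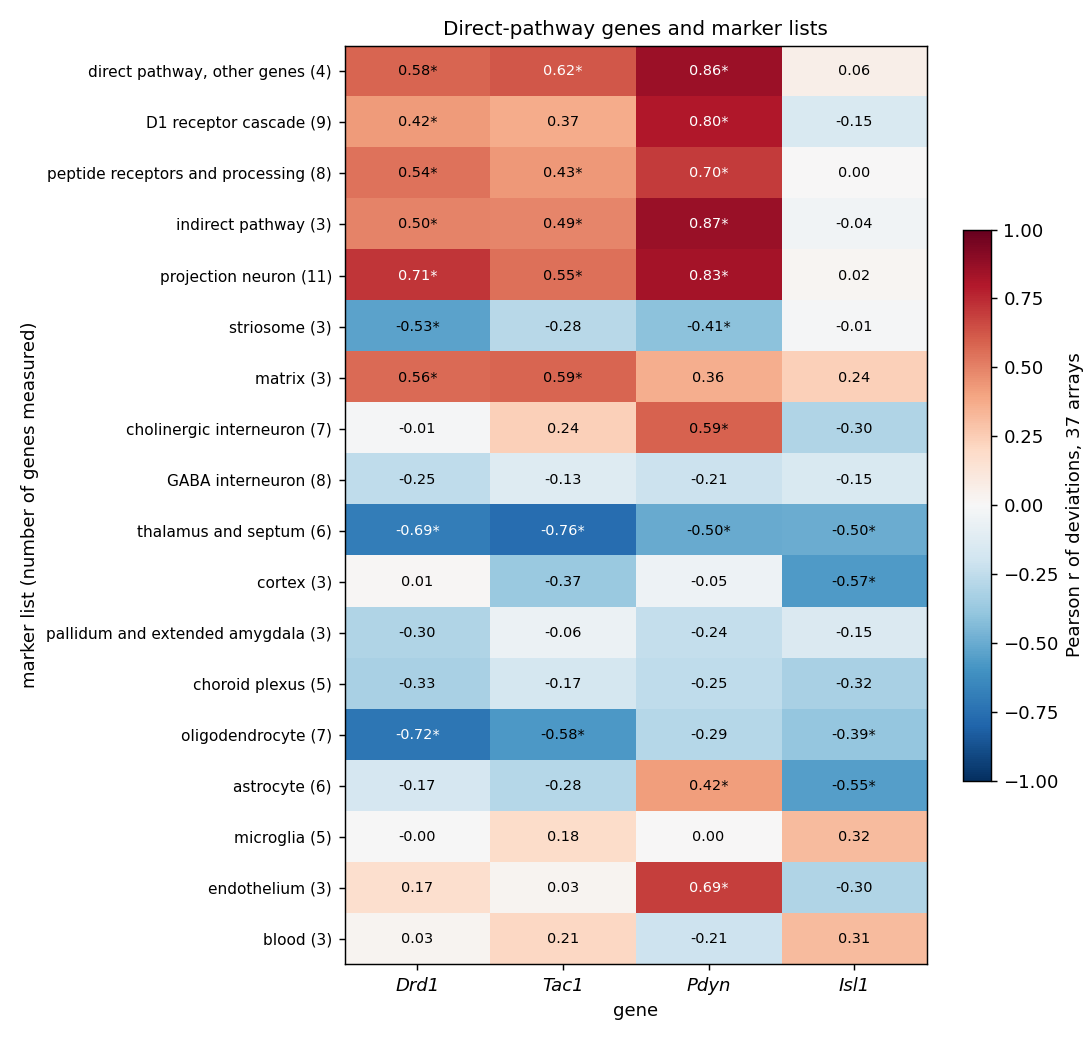
Pearson r between each member (columns) and the mean residual of each gene list (rows, with the number of genes measured) over 37 arrays, in colour and digits; an asterisk marks a permutation p adjusted over 72 relations below 0.05. Drd1, Tac1 and Pdyn are positive with the projection neuron list, and all 4 members are negative with the thalamus and septum list, from -0.763 to -0.495.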

How the data were processed

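Striatal RNA of 38 mice was measured on Illumina bead arrays, and 37 had a signal column. Per the file headers, the deposited table holds a raw signal intensity, a detection p-value and a number of beads for each of 25697 probes. A second deposited table holds log2 values, made by the authors with steps not given in the sources used here; the submitters' processing notes name limma. Its XX male columns had Spearman correlations of 0.0624 to 0.0729 with the same animals' signals, against 0.987 to 1 in the other groups, so it served only as an alternative without XX males. Signals were corrected and quantile normalized with neqc (limma 3.58.1, R 4.3.3, offset 16). Probes with detection p below 0.01 in at least 8 animals were kept (12339), and the brightest per gene gave 9455 features. The linear model held 4 groups, labelled batch and the share of letter b (0, 0.5 or 1), called at adjusted p below 0.05. Residual correlations used permutation tests with 100000 resamples, two-sided. The number of arrays limits the precision, and the labels name separate animals. Named genes were the members, the 5 most and 2 least like each, and listed genes. The members and lists were chosen with earlier results of these data known. Alternatives covered normalization, offset, filter, terms, batch, letters, weights, the other Pdyn probe and left-out arrays. The scripts were tested on simulated data.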

Additional observations from a re-analysis of the deposited data

Results flagged for a closer look

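Drd1 in XX female replicate 9 was 12.50, far above the rest of its group, where the next highest value was 11.47. The gap made up 0.514 of the group's range, past Dixon's 95% value of 0.493 for 9 samples. It was the 1 sample set apart in 12 groups that were tested, and chance sets one apart in about 1 in 20 such groups. XY males, with 11 arrays, were too many for this test and were not tested. On that array Tac1 was 13.23, Pdyn 13.19, the highest of XX females, and Isl1 10.25. The mean of the oligodendrocyte list, 11.49, and of the striosome list, 8.59, were the lowest of the 9 XX females, and the projection neuron mean, 12.10, the highest. Its means of the cortex list, 10.21, the endothelium list, 8.30, the matrix list, 7.00, the D1 receptor cascade, 12.94, the peptide receptors and processing list, 8.97, and the other direct-pathway genes, 9.21, were also the highest of the 9. Their part in the result was not tested.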

How the results depend on the processing

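The members' calls between groups held under almost every alternative, and the signs did not. Over 17 settings, 350 values of group differences kept their sign in 294 cases and turned it in 56, and 1 was called, Isl1 in XX males minus XX females without the letter term. Each count of members called between groups stayed at 0 when 1 array was left out. A fit of XX males and XX females alone with the letter term could not be made, since each group has 1 letter, and was not run. The authors' log2 table was used without XX males and with XY male replicate 3. The letter term called 1244 of 9455 features in the main fit, 15 within batch 1 and 0 within batch 2. On the authors' table it called 0 of 9186. Same-numbered animals of different groups had a median residual correlation of -0.0151 over 48 pairs, and 20 were over 0.1, so the numbers were not taken as pairs, and the replicate block is given here only. Below are the values that turned sign in any alternative, with left-out arrays last, or, for counts and correlations, changed their call, and the cause was not tested.

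Values with the 75th percentile centring were Tac1 -0.10 (XX male minus XY male), Pdyn -0.017 (XX male minus XX female), Pdyn -0.15 (the letter term). Correlations with the 75th percentile centring were Pdyn with Isl1 0.336. Values without the letter term were Isl1 -0.20 (XX female minus XY male), Isl1 0.22 (XX male minus XY male), Isl1 0.19 (XXY male minus XX female), Isl1 -0.22 (XXY male minus XX male), 1 (the number of members called in XX male minus XX female), Pdyn -0.052, Isl1 0.41 (XX male minus XX female). Values without the labelled batch were Pdyn 0.033 (XXY male minus XX female). Values in a fit of only the groups compared were Pdyn -0.018 (XX female minus XY male), Isl1 0.011 (XX male minus XY male), Pdyn 0.063, Isl1 -0.020 (XXY male minus XX male). Values in a fit of only labelled batch 1 were Drd1 -0.14, Tac1 -0.034, Isl1 -0.38 (XX female minus XY male), Drd1 0.42, Tac1 0.19, Isl1 0.28 (XXY male minus XX female), Drd1 -0.019, Isl1 -0.070 (XXY male minus XX male), Drd1 0.44, Tac1 0.13, Pdyn -0.0095, Isl1 0.35 (XX male minus XX female), 0 (the number of members called in the letter term), Tac1 0.038, Pdyn -0.043 (the letter term). Correlations over only arrays of labelled batch 1 were Tac1 with Isl1 0.448. Values in a fit of only labelled batch 2 were Isl1 0.0040 (XXY male minus XY male), Tac1 -0.084, Isl1 0.094 (XX male minus XY male), Isl1 -0.090 (XXY male minus XX male), 0 (the number of members called in the letter term). Correlations over only arrays of labelled batch 2 were Drd1 with Isl1 0.311, Tac1 with Isl1 0.473. Values without animals of both letters were Tac1 -0.28, Pdyn -0.23 (XXY male minus XY male), Pdyn -0.038 (XX female minus XY male), Drd1 -0.041, Tac1 -0.15 (XX male minus XY male), Tac1 -0.13, Isl1 -0.065 (XXY male minus XX male), Drd1 -0.0059 (the letter term). Values with array weights were Pdyn 0.073 (XXY male minus XX female), Isl1 -0.056 (XXY male minus XX male). Values with the replicate block were Drd1 -0.028, Tac1 -0.10, Pdyn -0.023 (XX male minus XY male), Pdyn 0.12 (XXY male minus XX male), Pdyn -0.52 (XX male minus XX female), 0 (the number of members called in the letter term), Drd1 -0.59, Pdyn -0.53 (the letter term). Values with the authors' log2 table without XX male were Isl1 0.0046 (XXY male minus XY male), 0 (the number of members called in the letter term), Drd1 -0.45 (the letter term). Values with the other probe of Pdyn were Pdyn 0.034 (XXY male minus XX female), Pdyn 0.20 (XXY male minus XX male), Pdyn -0.17 (XX male minus XX female). Values over only arrays with letter a were Tac1 -0.13 (XXY male minus XY male), Tac1 -0.0016 (XX male minus XY male), Drd1 -0.053, Tac1 -0.12, Isl1 -0.11 (XXY male minus XX male). The letter a arrays held 2 XXY males. Correlations over only arrays with letter a were Drd1 with Pdyn 0.510, Drd1 with Isl1 0.502, Tac1 with Pdyn 0.518, Tac1 with Isl1 0.576. Values over only arrays with letter b were Drd1 -0.38, Tac1 -0.53, Pdyn -0.70 (XXY male minus XY male), Pdyn -0.077 (XX female minus XY male). The letter b arrays held 1 XXY male, so its differences rest on 1 animal. Correlations over only arrays with letter b were Drd1 with Isl1 0.270, Tac1 with Isl1 0.206, Pdyn with Isl1 -0.0486. Correlations of unadjusted values were Drd1 with Isl1 0.000104, Tac1 with Isl1 0.286, Pdyn with Isl1 -0.0404. Correlations without arrays of both letters were Drd1 with Isl1 0.355, Tac1 with Isl1 0.358. Correlations over only XXY male arrays were Drd1 with Tac1 0.726, Drd1 with Pdyn 0.419, Drd1 with Isl1 0.760, Tac1 with Pdyn 0.657, Tac1 with Isl1 0.786. Correlations over only XX female arrays were Drd1 with Tac1 0.730, Drd1 with Pdyn 0.664, Drd1 with Isl1 0.249, Tac1 with Pdyn 0.587, Tac1 with Isl1 0.0492, Pdyn with Isl1 -0.280. Correlations over only XX male arrays were Drd1 with Pdyn 0.551, Drd1 with Isl1 0.569, Tac1 with Pdyn 0.476, Tac1 with Isl1 0.757. Correlations over only XY male arrays were Drd1 with Isl1 0.421, Tac1 with Isl1 0.310. Correlations with residuals also adjusted for their first component were Pdyn with Isl1 0.564. Correlations with residuals also adjusted for the projection neuron list were Drd1 with Pdyn -0.00810. Correlations with residuals also adjusted for the thalamus and septum list were Drd1 with Isl1 0.155, Tac1 with Isl1 0.143, Pdyn with Isl1 -0.142. Correlations with residuals also adjusted for the oligodendrocyte list were Drd1 with Isl1 0.250, Tac1 with Isl1 0.311. Leaving out 1 array turned the sign of 11 of 24 differences, none of them called, and the values farthest past 0 were Pdyn -0.091 without XX female 9 (XX female minus XY male), Drd1 0.089 without XX female 9, Pdyn -0.053 without XX female 7 (XX male minus XX female), Isl1 0.0032 without XY male 6, Tac1 -0.10 without XY male 1 (XX male minus XY male), Drd1 0.15 without XX female 9, Pdyn 0.16 without XXY male 9, Tac1 0.071 without XXY male 9 (XXY male minus XX female), Isl1 -0.025 without XX male 2 (XXY male minus XX male), Isl1 0.012 without XXY male 9, Pdyn -0.022 without XXY male 3 (XXY male minus XY male).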

Other observations

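XY male replicate 3 had no signal column and entered only the alternative fit on the authors' log2 table. In the authors' deposited log2 table its values were 10.75 for Drd1, 12.79 for Tac1, 12.29 for Pdyn and 10.24 for Isl1. The other XY males ran from 10.43 to 11.35, 12.32 to 13.43, 11.81 to 12.97 and 10.06 to 10.70 for the same genes in that table.

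Cortex genes (3 measured) correlated with Isl1 at r -0.567, and astrocyte genes (6 measured) at -0.550, with adjusted permutation p of 0.000720 and 0.00123 over 72 relations. Spearman rho was -0.549 and -0.452, and without the 2 arrays most extreme for Isl1 r was -0.439 and -0.330. Endothelial genes (3 measured) correlated with Pdyn at r 0.693 and with Isl1 at -0.302.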
